A study of Mus musculus with 2 samples.

Results

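Kinesins are the motor proteins that walk along microtubules. The mouse genes named Kif, the Kifc genes included, were taken from the expression table by their names (names starting with Kif followed by a digit or c), which gave 30 of its 10982 gene symbols. Of these, 12 were set apart as mitotic kinesins: Kif2c, Kif4, Kif11, Kif14, Kif15, Kif18a, Kif18b, Kif20a, Kif20b, Kif22, Kif23 and Kifc1. The other 18 hold 17 genes of the kinesin families, most of them for cargo transport, and Kif1bp, which encodes a kinesin-binding protein and no motor. On a list of 41 mouse kinesins, 29 had a value. The other 12, among them Kif1a and Kif5a, 2 neuronal transport motors, had none in the table used here, which is not read as low expression.

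The cultures were labelled as neonatal mouse cardiomyocytes, the contractile cells of the newborn heart. One was transfected with an antagomir against FERPIR, a piRNA, and the other with a negative control. An antagomir is a modified oligonucleotide that pairs with a small RNA to block it, and the treatment label of both cultures reads PBS. Each group had 1 library of polyadenylated RNA, so nothing below has a replicate check, an SD or a test, and every value describes these 2 libraries. Levels are in FPKM, which scales fragments by transcript length and by library total, and the depth behind them is unknown.

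Dividing cells use mitotic kinesins to push spindle poles apart, move chromosomes, trim microtubule ends and cut the daughter cells free, and make them mostly in the G2 and M phases. Transport kinesins carry vesicles, organelles and mRNA toward the cell edge or along the primary cilium in cells that do not divide as well. Heart muscle cells largely leave the cell cycle soon after birth, whereas fibroblasts of the same tissue keep dividing in culture. In bulk RNA, fewer cells of a type and less RNA per cell cannot be told apart.

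The antagomir library had more RNA of all 12 mitotic kinesins than the control library, and less of 12 of the 17 other Kif genes that reached 1 FPKM in the higher library (10 of 17 after centring on the median of all genes, where Kif2a and Kif21a turn just above 0). The log2 ratio used throughout is log2 of antagomir FPKM + 1 over control FPKM + 1, which understates differences of low genes, and every fold is on the same scale. Its median was 0.62 over the 12 mitotic kinesins, 1.54-fold higher in the antagomir library, and -0.19 over the 17 other Kif genes, with -0.05 over all 10201 genes that reached 1 FPKM. The mitotic median lay 0.82 above that of the other Kif genes on the log2 scale. Among all genes 46% had a log2 ratio above 0 and 54% one below 0. At a limit of 1.5-fold, 7 of 12 mitotic kinesins were higher, against 10.8% of all genes, and none was lower, against 13.4%. Of the other 17, 3 were higher and 1 was lower by that limit. At 2-fold Kif20a alone was higher, against 2.88% of all genes, and no Kif gene was lower, against 3.79%. These calls depend on the scale and on the weight of the pseudocount. Both rescalings that follow used totals of the genes in the table and kept the pseudocount of 1 on larger values. The pseudocount then weighs less on low genes. Kif20a came to log2 ratios of 0.96 as TPM and 0.99 after rescaling to totals without mitochondrial, hemoglobin and ribosomal protein RNA, both under 2-fold, whereas Kifc3 passed it at 1.26 and 1.32 and Kif21b was lower at -1.17 in both. With a pseudocount of 0.1, Kif23 (1.08), Kifc3 (1.49) and Kif21b (-1.18) passed it beside Kif20a.

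Summed over the group, the mitotic kinesins came to 174 FPKM in the antagomir library and 106 FPKM in the control library, a ratio of 1.63. The 17 other Kif genes summed to 179 FPKM in the antagomir library and 174 FPKM in the control library, since Kif1c and Kifc5b, both higher, are among the most abundant of them. The sums of all 10201 genes had a ratio of 1.06. The 2 groups overlapped: of 204 pairs of a mitotic and another Kif gene, the mitotic one had the higher log2 ratio in 176, or 86.3%. These pairs are of genes within the same 2 libraries and are no replicates.

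**Figure D1:**
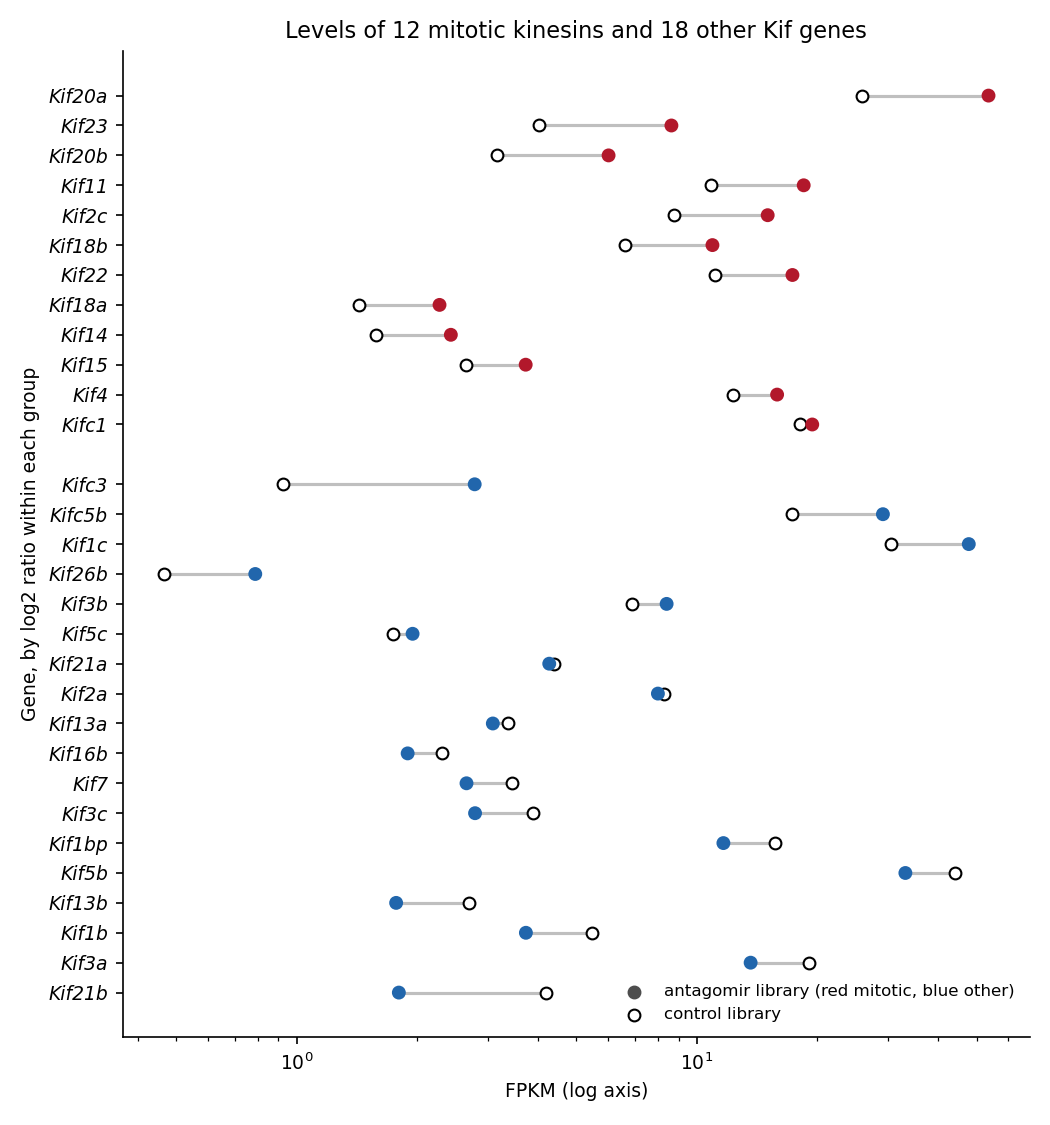
FPKM of each of the 30 Kif genes on a log axis, with filled points for the antagomir library (red for the mitotic kinesins, blue for the others) and open points for the control library. Every red point lies to the right of its open point, by little for Kifc1 with 19.4 (antagomir) and 18.1 FPKM (control), while 12 blue points lie to the left of theirs.

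The kinesins of the spindle midzone and of cytokinesis had the highest median log2 ratio of the 4 mitotic roles with more than 1 gene, 0.85. Kif20a, which brings the chromosomal passenger complex to the midzone, had 53.6 FPKM in the antagomir library and 25.9 FPKM in the control library, 2.03-fold higher. Its log2 ratio of 1.02 was above that of 97.3% of all genes, and its level was the highest of the 30 Kif genes in the antagomir library and the third highest in the control library. Kif20a lies on chromosome 18 from 34624624 to 34633265 in GRCm38 coordinates, and 29.3% of its exonic bases overlap Cdc23 on the opposite strand. Cdc23, a subunit of the anaphase-promoting complex, had 4.602 (antagomir) and 5.77 FPKM (control), far below Kif20a in both.

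Kif23, the motor of the centralspindlin complex, had 8.64 FPKM in the antagomir library and 4.03 FPKM in the control library, 1.92-fold higher. No exon of Kif23, on chromosome 9 from 61915905 to 61946774, overlaps another gene. Its partner in that complex, Racgap1, had 33.3 FPKM in the antagomir library and 32.3 FPKM in the control library, so the 2 subunits differed by unequal amounts between the libraries. Kif20b, which acts in the completion of cytokinesis, had 6.02 (antagomir) and 3.16 FPKM (control), 1.69-fold higher. Kif14, which works with citron kinase at the cleavage furrow, had 2.43 (antagomir) and 1.58 FPKM (control), a log2 ratio of 0.41, and passed 1.5-fold only with a smaller pseudocount or with the length trend removed.

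Of the motors that push the spindle poles apart, Kif11, which crosslinks and slides antiparallel microtubules, had 18.5 FPKM in the antagomir library and 10.8 FPKM in the control library, 1.65-fold higher. Kif15, which can stand in for Kif11 in holding the poles apart, had 3.73 FPKM in the antagomir library and 2.65 FPKM in the control library, a log2 ratio of 0.37. Both were thus higher in the antagomir library, Kif15 within the limit of 1.5-fold.

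Among the motors at microtubule ends and kinetochores, Kif2c, a depolymerase that corrects faulty chromosome attachments, had 15.03 (antagomir) and 8.79 FPKM (control), 1.64-fold higher. Kif18b, which limits the length of astral microtubules, had 10.9 (antagomir) and 6.62 FPKM (control), 1.57-fold higher. Kif18a, which dampens the movements of chromosomes at the spindle equator, was much lower in level, with 2.27 (antagomir) and 1.43 FPKM (control), and had a log2 ratio of 0.43 that came to 0.64 with a pseudocount of 0.1. Of the 2 motors on chromosome arms, Kif22 had 17.3 FPKM in the antagomir library and 11.1 FPKM in the control library, 1.52-fold higher, close above the limit, and 0.55 on the log2 scale, below it, after rescaling to TPM. Kif4, which also sets the length of the midzone, had 15.9 (antagomir) and 12.3 FPKM (control), a log2 ratio of 0.34. On the opposite strand Kif4 overlaps 832 bases of exons of Pdzd11, which had 64.7 FPKM in both libraries.

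Kifc1, a minus-end-directed motor that focuses the spindle poles, stood lowest of the 12, with 19.4 FPKM in the antagomir library and 18.1 FPKM in the control library, a log2 ratio of 0.10. The mouse genome has a close copy, Kifc5b, which the name pattern matches as well but which is not among the 12 set apart as mitotic. Both lie on chromosome 17, Kifc1 from 33875666 to 33890661 and Kifc5b from 26917091 to 26932579. In 50-base windows, 45.8% of the longest Kifc1 transcript recurs in that of Kifc5b. Kifc5b had 29.2 FPKM in the antagomir library and 17.3 FPKM in the control library, 1.65-fold higher. Reads that fit both genes can be divided between them in more than one way, so the values of either are uncertain. Their sum was 48.6 FPKM in the antagomir library and 35.4 FPKM in the control library, a log2 ratio of 0.45.

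**Figure D2:**
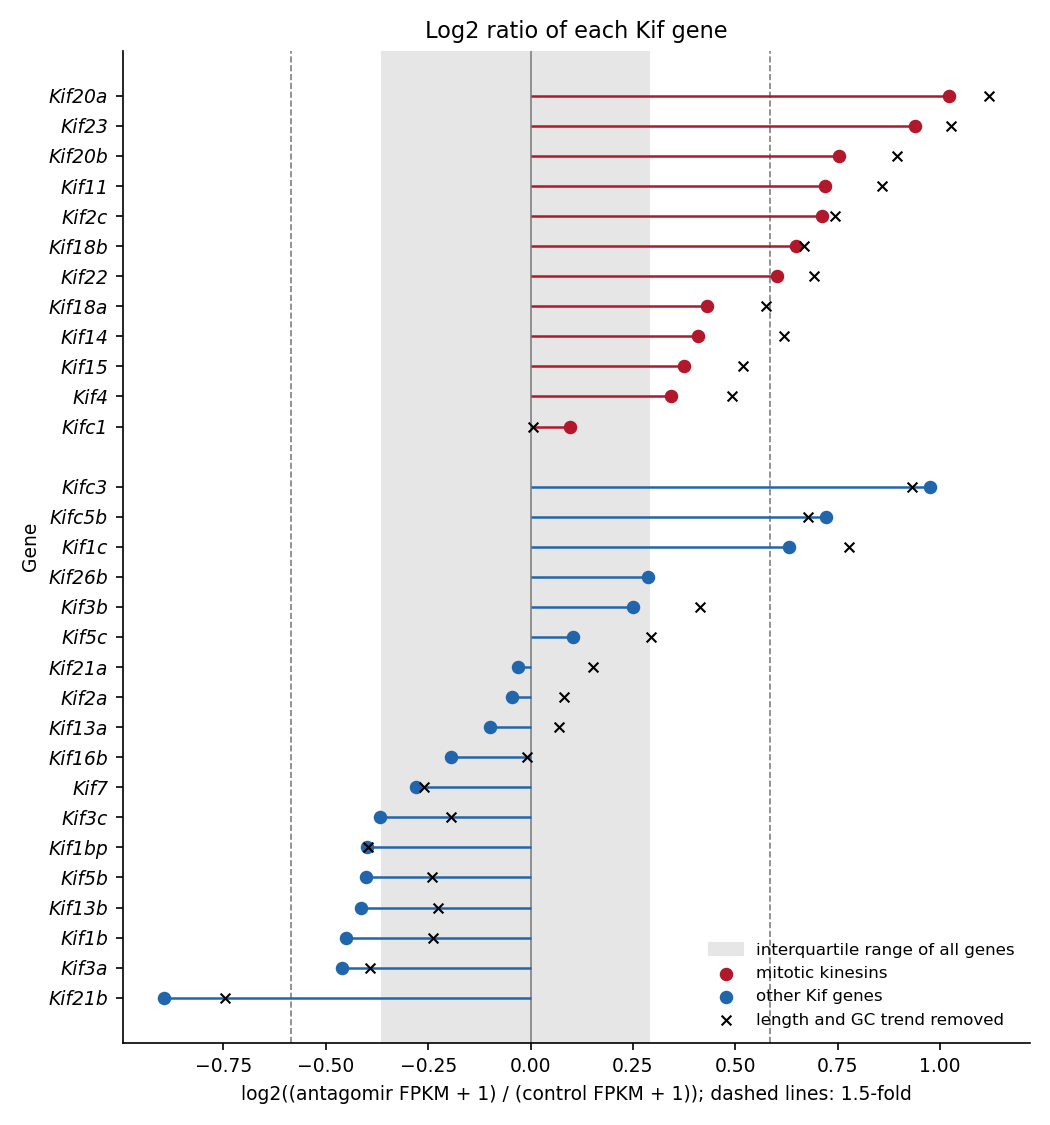
Log2 ratio of antagomir over control, FPKM + 1, for each Kif gene (red mitotic, blue other), with crosses for the same value after removal of the length and GC trend, the interquartile range of all genes as a grey band and dashed lines at 1.5-fold. The mitotic kinesins run from 0.10 for Kifc1 to 1.02 for Kif20a, and the other genes from -0.90 for Kif21b to 0.98 for Kifc3.

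Promoters are shown because many cell cycle genes share a short element near their start, the cell cycle genes homology region, with the letters TTTGAA, often beside a CCAAT box. RefSeq promoter windows on GRCm38.p6, from 250 bases before to 50 bases after the start, were given for 24 of the 30 genes, 11 mitotic and 13 other. TTTGAA, on either strand, occurred in the windows of 10 of the 11 mitotic kinesins, of 2 of the 13 other Kif genes and in 17.9% of 32851 mouse promoter windows. The mitotic kinesin without it was Kif18a. The 2 other genes with it were Kifc5b and Kif26b, which has lost motor activity and had 0.79 (antagomir) and 0.47 FPKM (control). CCAAT, on either strand, occurred in 7 of 11 mitotic windows, 5 of 13 other windows and 37.4% of all. The motifs can share an end letter, and in none of the Kif windows did they overlap. TTTGAA began within 30 bases of the start, a distance chosen after the positions were seen, in 8 of 11 mitotic genes, 2 of 13 others and 3.14% of all windows. A match describes letters that do not depend on the 2 libraries and is no evidence of binding. Its link to the log2 ratios was not tested.

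The sequences below run 5′ to 3′ from 80 bases before to 20 bases after the RefSeq start, with both motifs in capitals on whichever strand they lie (TTTGAA reads TTCAAA and CCAAT reads ATTGG on the other strand). The first 6 are mitotic kinesins with TTTGAA near the start. Kifc5b follows to be set beside Kifc1, its own TTTGAA lying past the printed bases, and Kif3a and Kif1c are transport motors that lack it.
Kif11 (chr19:37376302-37376401, plus strand): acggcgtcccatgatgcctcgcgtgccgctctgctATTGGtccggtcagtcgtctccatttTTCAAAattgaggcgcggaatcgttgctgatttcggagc
Kif22 (chr7:127042401-127042500, minus strand): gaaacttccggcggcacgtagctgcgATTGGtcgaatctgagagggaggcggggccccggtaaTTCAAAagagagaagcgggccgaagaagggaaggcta
Kif15 (chr9:122951001-122951100, plus strand): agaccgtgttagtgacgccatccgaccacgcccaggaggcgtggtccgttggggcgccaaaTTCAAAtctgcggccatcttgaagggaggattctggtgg
Kif23 (chr9:61946780-61946879, minus strand): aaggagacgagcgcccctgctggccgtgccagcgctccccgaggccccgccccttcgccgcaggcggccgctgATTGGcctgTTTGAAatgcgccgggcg
Kif18b (chr11:102925105-102925204, minus strand): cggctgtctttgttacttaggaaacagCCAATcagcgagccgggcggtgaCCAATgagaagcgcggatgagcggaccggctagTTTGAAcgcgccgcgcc
Kifc1 (chr17:33890614-33890713, minus strand): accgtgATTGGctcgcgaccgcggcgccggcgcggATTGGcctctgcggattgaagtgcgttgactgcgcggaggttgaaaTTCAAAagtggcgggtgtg
Kifc5b (chr17:26917011-26917110, plus strand): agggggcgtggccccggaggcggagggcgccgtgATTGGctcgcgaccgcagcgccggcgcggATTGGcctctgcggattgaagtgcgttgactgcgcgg
Kif3a (chr11:53567289-53567388, plus strand): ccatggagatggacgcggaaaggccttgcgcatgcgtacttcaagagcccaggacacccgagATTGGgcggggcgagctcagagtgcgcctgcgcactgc
Kif1c (chr11:70700468-70700567, plus strand): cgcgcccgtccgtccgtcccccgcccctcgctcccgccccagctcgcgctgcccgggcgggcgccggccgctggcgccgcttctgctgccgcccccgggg
In Kif11 and Kif22 a CCAAT box stands upstream of TTTGAA in the printed bases, as it does in Kif23, Kif18b and Kifc1, at spacings that differ. Kif15 has no CCAAT box in its window. Kif3a has a CCAAT box and Kif1c neither motif in the printed bases.

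Among the other Kif genes, 3 of the 5 transport motors of the kinesin-1 and kinesin-2 families were lower in the antagomir library and 2 were higher, all within 1.5-fold. Kif5b, the widely expressed heavy chain of conventional kinesin that carries mitochondria and lysosomes, had 33.2 FPKM in the antagomir library and 44.2 FPKM in the control library, 1.32-fold lower. It was the most abundant Kif gene of the control library and the third of the antagomir library. Its neuron-enriched relative Kif5c had 1.95 (antagomir) and 1.74 FPKM (control), a log2 ratio of 0.10. Kif3a, a motor of intraflagellar transport in primary cilia, had 13.6 (antagomir) and 19.1 FPKM (control), 1.37-fold lower. Kif3b, the usual partner of Kif3a in that motor, had 8.402 FPKM in the antagomir library and 6.90 FPKM in the control library, a log2 ratio of 0.25, so the 2 subunits pointed in opposite directions. Kif3c, an alternative partner found mainly in neurons, had 2.79 (antagomir) and 3.89 FPKM (control), with 43.3% of its exonic bases overlapping antisense transcripts. Kifap3, the non-motor subunit of the same complex, had 26.2 (antagomir) and 26.3 FPKM (control).

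Kinesin-3 motors other than Kif14, which is counted with the mitotic kinesins and was higher, carry vesicles along axons and endosomal routes. Of the 5 among the other Kif genes, 4 were lower in the antagomir library. Kif1c, which moves dense-core vesicles and mRNA, was the exception, with 47.8 FPKM in the antagomir library and 30.5 FPKM in the control library, 1.55-fold higher. It was the second most abundant Kif gene in both libraries, and its log2 ratio was 0.56, under the limit, as TPM. Kif1b, a motor for mitochondria and synaptic vesicle precursors, had 3.74 (antagomir) and 5.48 FPKM (control), 1.37-fold lower. Kif13b had 1.77 (antagomir) and 2.69 FPKM (control), 1.33-fold lower, Kif16b, a motor of early endosomes, had 1.89 (antagomir) and 2.31 FPKM (control), and Kif13a, which serves recycling endosomes, had 3.09 (antagomir) and 3.38 FPKM (control).

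Kif21b, a kinesin-4 motor best known from neurons that pauses microtubule growth, was the single Kif gene more than 1.5-fold lower, with 1.80 FPKM in the antagomir library and 4.21 FPKM in the control library, 1.86-fold lower. As TPM, Kif13b and Kif1b passed that limit too, at log2 ratios of -0.60 and -0.59. For Kif21b the log2 ratio of -0.90 lay above that of 5.15% of all genes, and no exon of it, on chromosome 1 from 136131389 to 136177998, overlaps another gene. Its paralog Kif21a had 4.28 FPKM in the antagomir library and 4.39 FPKM in the control library. Kif7, which organises the tip of the primary cilium in Hedgehog signalling, had 2.66 (antagomir) and 3.44 FPKM (control). Kif2a, a depolymerase related to Kif2c with roles in neurons and at the spindle, had 7.99 (antagomir) and 8.29 FPKM (control), unlike Kif2c close to equal. Its exons share 1229 bases with Dimt1 on the opposite strand, which had 7.43 (antagomir) and 13.1 FPKM (control).

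Kifc3, a minus-end-directed motor linked to cell junctions and the Golgi, had 2.78 FPKM in the antagomir library and 0.92 FPKM in the control library, 1.97-fold higher, and 27.5% of its exonic bases overlap other genes. Without genes whose exons overlap another gene, Kif1c, which shares 7 bases with a microRNA gene, and Kifc3 drop out. The count of other Kif genes at least 1.5-fold higher was then 1 of 10, Kifc5b, against 11.3% of all genes. Kif1bp, which binds and restrains several kinesins, had 11.6 FPKM in the antagomir library and 15.7 FPKM in the control library, 1.32-fold lower. Exons of 12 of the 30 Kif genes overlap another gene, the partner lying on the opposite strand except for Kif1c. The labels' protocol names a stranded library kit, but whether the quantification used strand is not given in the sources used here, so the values of these genes are uncertain.

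Transcript length moved with the difference between the groups. Across all genes with a length, Spearman's rho between transcript length and log2 ratio was -0.30, a description over genes that share the same 2 libraries. The median longest transcript had 4246.5 nucleotides for the mitotic kinesins and 6404 for the other Kif genes, against 3315.5 for all genes. When all genes were cut by length into 5 bins of nearly equal size, the bin of the longest transcripts, from 5145 nucleotides, had a median log2 ratio of -0.20. The 3 mitotic kinesins in that bin had a median of 0.43 and the 12 other Kif genes one of -0.15. With the trend over length and GC content removed, the mitotic median was 0.68 and all 12 were above 0 (Kifc1 at 0.01). The median of the other Kif genes was -0.0098 with 8 of 17 above 0. Of all 10192 genes with a length, 4865 were above 0, with a median of -0.02. The difference of the mitotic and other medians was then 0.69. Removal of the trend thus brought the median of the other Kif genes close to 0 and left the mitotic median above 0.

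**Figure D3:**
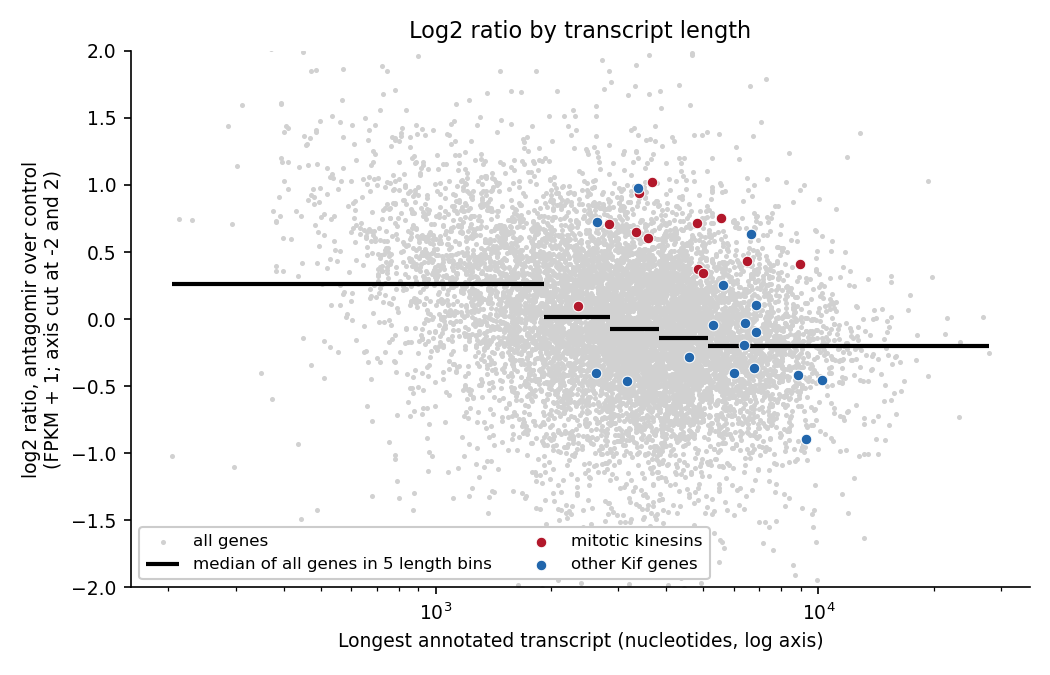
Log2 ratio of antagomir over control (FPKM + 1, axis limited to -2 to 2) against the longest annotated transcript on a log axis, for all genes (grey), mitotic kinesins (red) and other Kif genes (blue), with black lines for the median of all genes in each of 5 length bins. The black lines step down from 0.26 for the shortest transcripts to -0.20 for the longest, where the 3 red points lie above the line and 12 of the blue points gather.

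Genes that act beside the mitotic kinesins were described with the same measure. Of 26 spindle partners, all with values, 23 had a log2 ratio above 0, 11 were at least 1.5-fold higher in the antagomir library and 1 was that much lower, with a median of 0.35. Over all genes the shares were 46% above 0, 10.8% higher and 13.4% lower. Cep55, needed for abscission, had 22.1 FPKM in the antagomir library and 6.02 FPKM in the control library, 3.29-fold higher. Birc5, a subunit of the chromosomal passenger complex that Kif20a transports, had 68.5 (antagomir) and 28.2 FPKM (control), 2.38-fold higher. Cenpe, the kinetochore kinesin whose name the pattern does not match, had 11.6 (antagomir) and 9.19 FPKM (control), a log2 ratio of 0.31. At the other end, Numa1, which tethers dynein at spindle poles, had 10.4 (antagomir) and 17.4 FPKM (control), 1.61-fold lower, and the microtubule polymerase gene Ckap5 had 13.7 (antagomir) and 15.1 FPKM (control). Prc1, which bundles midzone microtubules with Kif4, had 14.4 (antagomir) and 13.9 FPKM (control). Exons of 8 of the 26 partners overlap other genes, by 911 bases in Prc1, 93 in Ckap5 and 80 in Numa1.

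Of 19 genes of the S, G2 and M phases, 17 had a log2 ratio above 0, 9 were at least 1.5-fold higher and 1 was that much lower, against the same 46%, 10.8% and 13.4% of all genes, with a median of 0.58. Cdc25c, the phosphatase that activates the mitotic kinase, had 28.6 FPKM in the antagomir library and 11.5 FPKM in the control library, 2.37-fold higher, and Cdc20, an activator of the anaphase-promoting complex, was 2.26-fold higher. Top2a had 62.6 (antagomir) and 40.7 FPKM (control), 1.52-fold higher, whereas the proliferation marker Mki67 had 12.98 (antagomir) and 10.8 FPKM (control), a log2 ratio of 0.24. Foxm1, a transcription factor of G2 and M phase genes, stood at the lower end, with 3.19 FPKM in the antagomir library and 8.32 FPKM in the control library, 2.23-fold lower. Exons of 7 of the 19 genes overlap other genes, by 623 bases in Cdc25c, 241 in Foxm1, 122 in Top2a and 53 in Cdc20. For these lists the direction of the medians was known from earlier results on the same 2 libraries.

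The 26 light chains, adaptors and cargo regulators of the transport motors included 21 with values, of which 1 was at least 1.5-fold higher, against 10.8% of all genes, and 4 were that much lower, against 13.4%, with a median log2 ratio of -0.04 that came to 0.01 after centring on all genes. Kidins220, a scaffold carried by kinesin-1, had 1.82 FPKM in the antagomir library and 7.24 FPKM in the control library, 2.92-fold lower. Arl8b, the GTPase that recruits kinesins to lysosomes, had 20.5 (antagomir) and 38.4 FPKM (control), 1.83-fold lower. Nefl, a neurofilament subunit and transported cargo, had 31.8 (antagomir) and 16.9 FPKM (control), 1.83-fold higher, and the scaffold gene Mapk8ip1 had 10.3 (antagomir) and 6.69 FPKM (control), a log2 ratio of 0.55. Exons of 10 of the 21 overlap other genes, by 1108 bases in Nefl, 138 in Kidins220 and 96 in Mapk8ip1.

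**Figure D4:**
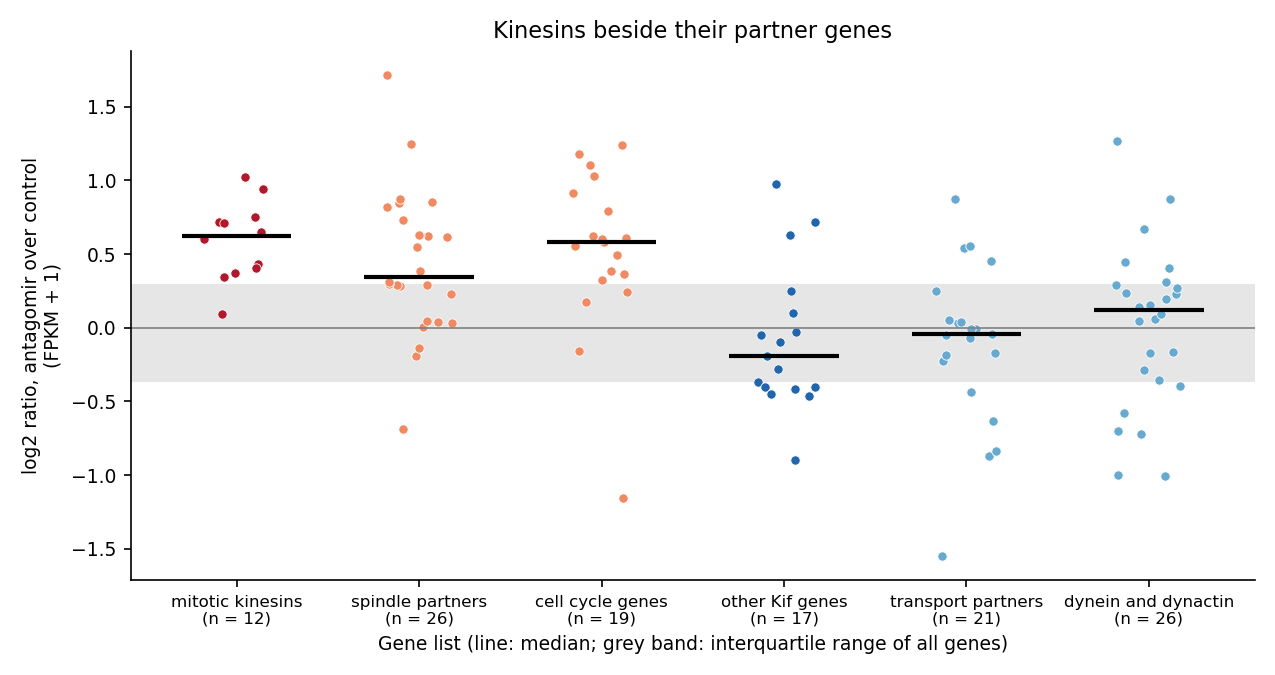
Log2 ratio of antagomir over control (FPKM + 1) for the genes of 6 lists that reached 1 FPKM, 1 point per gene, with a line at each median and a grey band for the interquartile range of all genes. The medians of the mitotic kinesins (0.62), spindle partners (0.35) and cell cycle genes (0.58) lie above the band, and those of the other Kif genes (-0.19), transport partners (-0.04) and dynein and dynactin genes (0.12) lie inside it.

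Markers of cell types were read beside these groups. Of 12 cardiomyocyte markers 3 had values, and Myh6, Tnni3 and Actc1 were among the 9 with none in the table used here, so the label could be checked only in part. Those 3 (Tnnt2, Tnnc1 and Nkx2-5) summed to 43.5 FPKM in the antagomir library and 19.6 FPKM in the control library, with a median log2 ratio of 1.88. The members differed in size, from 1.18-fold higher for Nkx2-5 to 3.69-fold for Tnnc1 and 3.71-fold for Tnnt2. Tnnt2 had 8.19 (antagomir) and 1.48 FPKM (control), Tnnc1 18.9 (antagomir) and 4.39 FPKM (control), and Nkx2-5 16.4 (antagomir) and 13.7 FPKM (control). Of 10 fibroblast markers 7 had values, summing to 1071 FPKM in the antagomir library and 1203 FPKM in the control library, with a median log2 ratio of -0.52. Vim makes up most of those sums, with 730 (antagomir) and 655 FPKM (control). In the antagomir library 5 of the 7 were lower, from 1.33-fold for Dcn to 3.56-fold for Ddr2. The other 2, Vim and Pdgfra, were 1.11-fold and 1.21-fold higher. Smooth muscle markers had values for 3 of 5, with sums of 885 FPKM in the antagomir library and 1325 FPKM in the control library. Acta2 makes up most of those sums, with 845 (antagomir) and 1304 FPKM (control), while Tagln was 2.02-fold and Cnn1 1.40-fold higher, and the median log2 ratio of the 3 was 0.49. Exons of Tagln overlap other genes by 1349 bases, so its value is uncertain as well. In both libraries the 3 cardiomyocyte markers with values each lay far below Vim and Acta2, and below Col1a1, Col3a1 and Dcn. In the control library each also lay below Col1a2 and Ddr2. In the antagomir library Tnnt2 lay below Col1a2 and Ddr2, whereas Tnnc1 and Nkx2-5 lay above them. Of the fibroblast markers with values, Pdgfra alone lay below all 3 in both libraries. Whether cardiomyocytes made up most of the cultures was not tested. Neuron markers had values for 3 of 6, of which Tubb3 and Stmn2, the pair that reached 1 FPKM, had log2 ratios of 0.51 and 0.56. Map2, under 1 FPKM in both libraries, was lower in the antagomir library, with 0.12 (antagomir) and 0.51 FPKM (control). The macrophage marker Lyz2, at 4.44 (antagomir) and 3.28 FPKM (control), and the blood marker Hba-a1, at 11.5 (antagomir) and 10.2 FPKM (control), were the single ones of their lists with values, and none of the endothelial, glial or ciliated cell markers had one. No marker with a value was listed at 0. The part of cell composition in the kinesin values was not tested.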

How the data were processed

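RNA was measured in 1 antagomir and 1 negative control library. The authors deposited gene-level FPKM values. Per the submitters' processing notes, cutadapt, HISAT2 and StringTie version 1.3.3 were used on GRCm38. For the annotation release, the settings and strand use, nothing was given in the sources used here. The table had 10992 lines, and 10 symbols on several lines were summed. Low FPKM values times transcript length showed no steps of whole reads, so depth is unknown and no interval was computed.

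The log2 ratio used a pseudocount of 1 FPKM and genes reaching 1 FPKM in the higher library. Kif26b was under this minimum and is left out of medians and counts. Lengths, GC content and exon overlaps came from GENCODE M21, which held 10982 of the gene identifiers. The trend was a quadratic fit over log10 length and GC content of the longest transcript, with the mean kept. Members and gene lists were chosen with earlier results of these data known. The rule named all Kif genes, up to 2 genes at either end of each partner list reaching 5 FPKM, those at least 2-fold apart, and Cenpe, Kifap3, Mki67 and Top2a, of which a part is printed. Racgap1, Prc1 and the overlapping genes were added after their values were seen. Python 3.11.15, pandas 2.3.3, numpy 2.4.6 and matplotlib 3.10.9 were used, and the scripts were tested on simulated data. Alternatives covered the pseudocount, the minimum, scaling, centring, the trend, overlapped genes and membership.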

Additional observations from a re-analysis of the deposited data

How the results depend on the processing

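The mitotic median stayed above 0 under all alternatives, between 0.58 as TPM and 0.71 at a minimum of 5 FPKM. These include the 2 on Kifc5b that were chosen after seeing the data. All mitotic kinesins of the name rule were above 0 in each of them. Between 5 and 9 mitotic kinesins were at least 1.5-fold higher. The 5 were of 8 without overlapped genes, against 11.3% of all genes. The 9 were of 12 with pseudocounts of 0.1 and 0.01, against 14.1% and 14.5%. Over all alternatives the share of all genes ran from 8.63%, with the trend removed, to 14.5%. No mitotic kinesin was 1.5-fold lower, against 11.6% to 19.97% of all genes. The median of the other Kif genes was -0.32 as TPM, -0.31 after rescaling to totals that leave out mitochondrial, hemoglobin and ribosomal protein RNA, and -0.0098 with the length and GC trend removed. The mitotic minus other difference of medians was 0.95 and 0.98 with pseudocounts of 0.1 and 0.01, 0.93 at a minimum of 5 FPKM, 0.92 after that rescaling and 0.69 with the trend removed. Other Kif genes at least 1.5-fold lower numbered 2 with a pseudocount of 0.01 and after that rescaling, 3 as TPM and 0 at 5 FPKM, where Kif21b is left out. Without overlapped genes 1 of 10 other Kif genes was 1.5-fold higher, against 11.3% of all genes, 2 having been removed. Apart from those removals the cause was not tested. As TPM 10.5% of all genes were 1.5-fold higher and 19.97% lower, against 10.8% and 13.4% as deposited. Kif21a and Kif2a were above 0 after centring and, with Kif13a, with the trend removed. Depth being unknown, counting error could not be set beside low genes such as Kif18a. No paired analysis was possible because each group has 1 library.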

Other observations

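Dynein and dynactin, the machinery that carries cargo in the direction opposite to most kinesins, had calls in both directions at shares near those of all genes. Of 29 listed genes 26 had values, with a median log2 ratio of 0.12, 3 at least 1.5-fold higher in the antagomir library, against 10.8% of all genes, and 4 that much lower, against 13.4%. The heavy chain gene Dync1h1 had 8.30 FPKM in the antagomir library and 17.6 FPKM in the control library, 2.01-fold lower. The light intermediate chain gene Dync1li1 had 18.8 (antagomir) and 38.5 FPKM (control), 1.995-fold lower. The light chain gene Dynll2 had 38.9 FPKM in the antagomir library and 15.6 FPKM in the control library, 2.41-fold higher. Pafah1b1, which encodes the dynein regulator LIS1, had 20.4 (antagomir) and 10.7 FPKM (control), 1.83-fold higher. Exons of 6 of the 26 genes overlap other genes, by 451 bases in Dync1h1, so those values are uncertain as well.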
